A study of Homo sapiens with 26 samples.

Results

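The 84 mRNAs described here encode proteins with which cells hold on to matrix and to each other and read their neighbours: 19 under integrin symbols, 13 cadherins, 8 protocadherins, 3 nectins, 11 claudins, 8 ephrins, 11 Eph receptors and 11 receptor-type tyrosine phosphatases. They were chosen by symbol and by level: they are the protein-coding genes whose symbols begin ITGA, ITGB, CDH, PCDH, NECTIN, CLDN, EFNA, EFNB, EPHA, EPHB or PTPR and whose log2 FPKM was above 0 in at least 3 of the 26 libraries. FPKM is the number of fragments per kilobase of exon per 1e6 fragments of a library, so a log2 value of 0 is 1 FPKM. Of 125 coding genes with such symbols in the matrix of 25745 genes, 41 were left out by that level, and 2 ITGB1BP genes, which encode integrin binding proteins, were left out by name. The symbol rule is literal, and it kept ITGB3BP, which encodes a centromere protein, as well as CLDND1, CLDND2 and the CDHR genes.

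The libraries come from HEK293T, a human embryonic kidney line that expresses the SV40 large T antigen, and they were made by APEX-seq. In this assay the peroxidase APEX2, fused to a targeting sequence, tags RNA around it with biotin, and streptavidin beads collect the tagged RNA. All cells stably expressed an APEX2 fusion, and the labels list 30 min of biotin-phenol and 1 min of 1 mM hydrogen peroxide for every library, controls included. What made the controls unlabeled, and whether a line was a single clone, is not given in the sources used here. The Lyn11 construct (4 labeled and 4 control libraries) and the Lck construct (3 and 3) are inside constructs, and the CD28 construct (3 and 3) and the PDGFR construct (3 and 3) are outside constructs, by the design text, which calls the libraries biological replicates. The question for these mRNAs is whether labeled libraries hold more or less of them than the controls of the same construct, and whether the sides differ.

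Integrins are paired alpha and beta chains that tie the cytoskeleton to the extracellular matrix. Cadherins and nectins bind members of their own family on the next cell. Claudins seal tight junctions, and receptor-type phosphatases remove phosphate from tyrosines at these contacts. Ephrins sit in the membrane of one cell and activate Eph receptor kinases on another. Proteins of these families are made on ribosomes at the endoplasmic reticulum and travel to the cell surface.

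Libraries of the inside constructs held 19.99 to 35.57 M (1e6) reads, recovered from the deposited values, and those of the outside constructs 11.6 to 16.62 M, so side and depth cannot be told apart. Among all libraries CD28 labeled replicate 2 (3147 genes at 0 reads) and PDGFR control replicate 2 (3022) stand apart from the rest. The labels' cell type was checked on lists of markers. Of 9 HEK293 markers 8 were measured, and their summed level was 90.8 to 148 FPKM in labeled and 89.4 to 157 FPKM in control libraries. Summed levels were 1.98 to 4.64 against 2.54 to 5.94 FPKM for blood (2 of 8 measured), 5.7 to 11.6 against 6.01 to 10.8 FPKM for fibroblasts (5 of 8) and 0.309 to 1.27 against 0.27 to 1.16 FPKM for epithelia (2 of 8).

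The upstream sequences of ITGB7, EFNB2, CLDN2 and CLDN24, which are 4 of the 6 members called higher in labeled libraries on average, are shown here as RefSeq gives them for GRCh38.p14, to set the genes in their genomic place. The windows read 5′ to 3′ on the gene's strand and end at the base before the RefSeq start, except that of ITGB7, which ends earlier, where GENCODE 29 starts the gene. That of ITGB7 is chr12:53207308-53207501, that of EFNB2 chr13:106535663-106535912, that of CLDN2 chrX:106899914-106900163 and that of CLDN24 chr4:183322427-183322676. ITGB7, EFNB2 and CLDN24 lie on the minus strand and CLDN2 on the plus strand. Capitals mark TATAAA, here on the opposite strand as TTTATA, in EFNB2, and the AP-1 motif TGANTCA in CLDN2.
ITGB7: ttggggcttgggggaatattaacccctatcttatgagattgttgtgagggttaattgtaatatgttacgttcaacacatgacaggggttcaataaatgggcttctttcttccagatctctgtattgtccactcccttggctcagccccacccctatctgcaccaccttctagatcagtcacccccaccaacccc
EFNB2: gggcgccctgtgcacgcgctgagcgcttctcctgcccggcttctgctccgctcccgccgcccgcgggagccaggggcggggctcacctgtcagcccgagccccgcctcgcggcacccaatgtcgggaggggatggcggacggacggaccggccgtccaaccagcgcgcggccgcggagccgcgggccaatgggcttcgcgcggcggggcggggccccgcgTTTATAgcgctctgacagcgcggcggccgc
CLDN2: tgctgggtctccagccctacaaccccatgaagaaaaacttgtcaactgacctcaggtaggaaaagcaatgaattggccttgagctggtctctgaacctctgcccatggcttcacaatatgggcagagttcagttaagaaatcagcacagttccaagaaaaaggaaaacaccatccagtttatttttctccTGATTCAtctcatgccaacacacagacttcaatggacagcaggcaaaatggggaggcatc
CLDN24: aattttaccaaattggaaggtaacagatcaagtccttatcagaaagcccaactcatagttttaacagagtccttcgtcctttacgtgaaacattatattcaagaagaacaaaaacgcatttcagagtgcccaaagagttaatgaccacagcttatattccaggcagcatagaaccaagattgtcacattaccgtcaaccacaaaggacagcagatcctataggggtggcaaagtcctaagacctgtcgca
Over the 250 bases before the start EFNB2 was 78.4% G and C, with the TATA letters 30 to 25 bases before it. Those of ITGB7, CLDN2 and CLDN24 held 49.6%, 46.0% and 40.8%, against a median of 58.0% over all 27305 windows and 66.0% over the 65 members found in the table. The AP-1 letters of CLDN2 lay 60 to 54 bases before its start. Searched on both strands, TGANTCA stood in 3 of the 65 member windows (4.62%) and 6.6% of all, and TATAAA in 2 (3.08%) and 11.1% of all. The cyclic AMP element TGACGTCA stood in 3 (4.62%) and 1.77% of all, and the EGR1 motif GCGTGGGCG in 0 and 0.71% of all. These are matches of letters and no more.

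The single genes with the highest means over the 13 control libraries were phosphatases and a nectin. The top means belonged to PTPRU, with 5.89 log2 FPKM, and PTPRS, with 5.52, receptor phosphatases with roles at cell contacts and in neurons. NECTIN2 reached 4.62 and NECTIN3 3.58. Among Eph receptors EPHB4 (4.33) and EPHA2 (3.35) led, and among ephrins EFNB1 (3.76) and EFNB2 (3.73), the transmembrane ligands. ITGB1, the beta chain shared by most integrins, had 4.14, and ITGB3BP 3.71. CDH2, which encodes N-cadherin, had 3.77 and CDH24 3.28, and the protocadherins PCDH7 and PCDH9 had 2.73 and 2.65. Of the claudin symbols CLDND1 (3.51) and CLDN15 (3.38) were highest.

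By family the median control level was 3.58 log2 FPKM for nectins, 3.10 for ephrins, 2.62 for phosphatases, 2.04 for Eph receptors, 1.58 for integrins, 0.87 for protocadherins, 0.48 for cadherins and 0.09 for claudins. The median of all 84 was 1.83, and that of the 12937 coding genes tested 2.81. These ranks describe genes the level rule chose. Just inside that rule were ITGB4 and ITGA11, whose third-highest libraries stood at 0.14 and 0.25, and just outside EPHB6 and EPHA10, both at -0.05. Above 0 in every library were 55 members. Another 3 members, ITGB7, CLDN2 and EPHA1, were above 0 in labeled libraries only, so the rule took them through their labeled values. In all, 6 members were above 0 in fewer than 3 control libraries, and 3, among them CLDN3 and CDHR5, in fewer than 3 labeled libraries. Level thus chose some members by labeled and others by control values. No count over the members is used to support a direction.

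**Figure D1:**
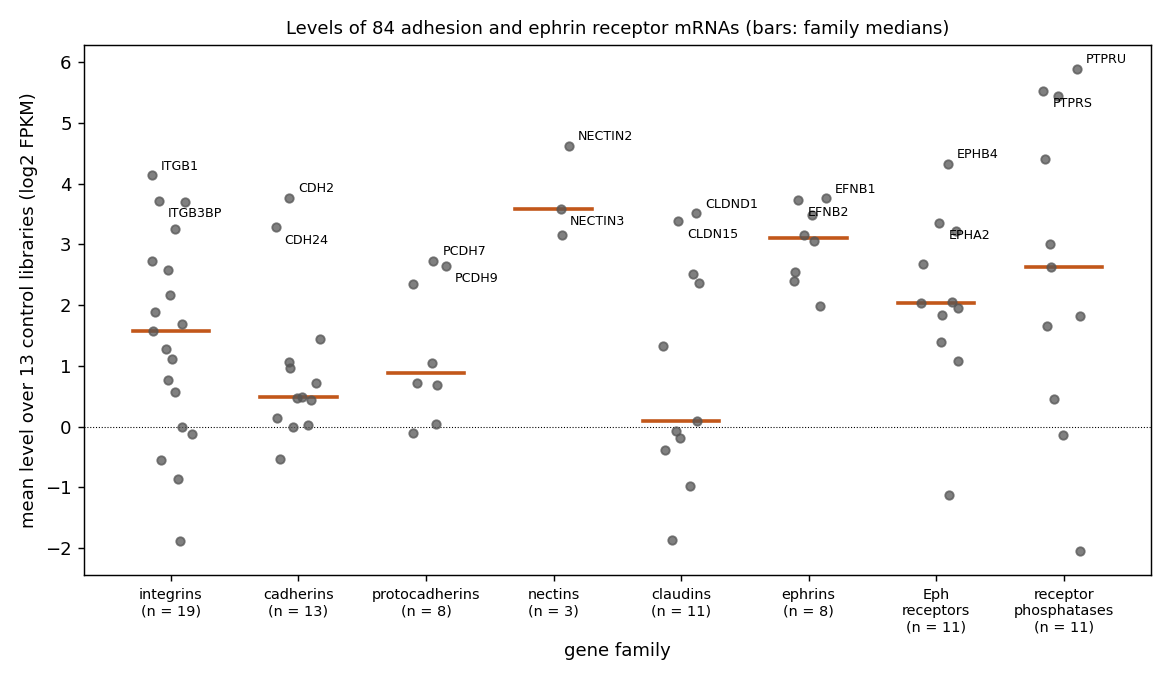
Mean level of each member over the 13 control libraries in log2 FPKM (vertical axis) by gene family (horizontal axis). Points are genes, bars are family medians and the 2 highest of each family are named, with claudins at a median of 0.09 and nectins at 3.58.

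Some of these loci share exons with other genes, and the libraries' strandedness is not given in the sources used here, so reads from the shared bases cannot be told apart. Of the PCDHGC3 exon bases 40.2% lie in exons of other protocadherin gamma genes, EFNA3 shares 44.7% and EFNA4 15.0% of exon bases with the gene AL691442.1, and CDH23 shares 18.9% with C10orf105 on the opposite strand. ITGB7 is described with its own overlap.

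Levels of single members could vary widely between libraries, and the ranges given next span all 8 groups. Over the 26 libraries the 54 members with a control mean of at least 1 had a median range of 1.17 log2 units, from 0.46 for EFNA5 to 2.18 for ITGA9. The 30 members under that level had a median range of 2.28. PTPRK, a phosphatase of cell contacts, had the widest, at 7.04 (named, like EFNA5 and ITGA9, after the values were seen). Its PDGFR labeled libraries stood at -4.29, -2.01 and -3.72 log2 FPKM, from 6, 32 and 9 reads, and its CD28 controls at -1.18, -6.09 and -0.40, from 54, 1 and 84 reads. High and low libraries of PTPRK occurred in labeled and control groups alike, and its average labeling difference was 0.84 ± 0.66 (limma, adjusted p = 0.563).

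With the inside constructs ITGB7 was the 1 member called, and it was called higher with both. It encodes the beta 7 chain of integrins that take lymphocytes to the gut, and it was the lowest integrin in the control libraries. For Lyn11, 1 of 84 members was called higher and 0 lower (1.19%), against 0.579% of the 22284 genes tested (0.53% higher and 0.0494% lower). For Lck the count was again 1 higher and 0 lower (1.19%), against 0.794% of all genes (0.758% higher and 0.0359% lower). A share of 1 gene in 84 is too small to set apart from these backgrounds. In bulk libraries, fewer cells with an mRNA and less of it per cell cannot be told apart.

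ITGB7 measured -0.26, 0.73, -0.04 and 0.80 log2 FPKM in the Lyn11 labeled libraries, from 86, 182, 106 and 182 reads, and -1.34, -2.05, -2.32 and -2.19 in their controls, from 54, 24, 21 and 22 reads. All 4 labeled libraries lay above all 4 controls. The difference was 2.28 ± 0.44 (standard error; limma, adjusted p = 0.014). In the Lck libraries ITGB7 measured 0.62, 0.52 and 0.55 when labeled, from 145, 151 and 156 reads, and -1.84, -1.74 and -1.87 as control, from 25, 30 and 25 reads. The Lck groups were tight and did not overlap, with a difference of 2.38 ± 0.51 (adjusted p = 0.0279).

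Both calls rest on few libraries. Without Lyn11 labeled replicate 2 or 4, or Lyn11 control replicate 2, 3 or 4, the adjusted p of the Lyn11 difference was 0.0524 to 0.0747. Without any 1 of the 6 Lck libraries that of the Lck difference was 0.1 to 0.129. A replicate block also ended both calls, at 0.0911 for Lyn11 and 0.122 for Lck. Because the rule reached ITGB7 only through labeled libraries, these values are not independent of the choice of the gene. With all 25745 genes tested and no level filter, ITGB7 was called with both constructs too. That fit used the same ITGB7 values, so it does not lift this limit.

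Most other members lay close to their controls with the inside constructs. With Lyn11, 75 of 84 differences were within 0.5 log2 units of 0, their median was 0.04 against -0.03 over all genes tested, and 6 (7.14%) had an unadjusted p under 0.05, against 5.65% of all genes. With Lck, 72 were within 0.5, the median was 0.10 against -0.04, and 10 (11.9%) had an unadjusted p under 0.05, against 6.4% of all genes. The 11 Eph receptors had a median of 0.09 with Lyn11 and 0.22 with Lck, and 0 were called. The 13 cadherins had medians of -0.04 and 0.00, with all 13 within 0.5 in both.

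The Lck libraries varied least, with residual SDs over the members of 0.117 to 0.243 log2 units against 0.232 to 0.708 in the outside constructs. When libraries were weighted by construct, 11 members were called with Lck, all higher, and 8.22% of all genes were called under the same weights, against 0.794% without them. The 11 were ITGB7, CLDN24, EPHA1, CLDN5, PCDH12, EPHB3, PCDH19, EFNB2, PCDH10, EPHA4 and PTPRJ, with differences of 0.22 for PTPRJ to 2.38 for ITGB7. They include the Eph receptors EPHA1, EPHA4 and EPHB3 and the protocadherins PCDH10, PCDH12 and PCDH19, of which none was called with Lck when every library weighed the same.

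With the PDGFR construct 2 of 84 members were called higher and 0 lower (2.38%), against 2.13% of all genes (1.37% higher and 0.758% lower), so the share was near the background. One was ITGB7 and the other PTPRA, a widely expressed phosphatase that activates SRC family kinases. ITGB7 measured 0.73, 0.56 and -0.36 log2 FPKM when labeled, from 109, 96 and 49 reads, and -0.75, -2.99 and -1.57 as control, from 46, 7 and 21 reads. The groups did not overlap, and the difference was 2.08 ± 0.51 (limma, adjusted p = 0.038). PTPRA measured 4.41, 4.23 and 4.33 when labeled and 4.06, 3.74 and 3.95 as control. All 3 labeled values were higher, by 0.41 ± 0.09 in the fit (adjusted p = 0.0141).

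Neither PDGFR call held in every setting. Without PDGFR labeled replicate 1 or PDGFR control replicate 2 the adjusted p of PTPRA was 0.0573 and 0.0758. Without PDGFR labeled replicate 1 or 2, PDGFR control replicate 2, Lyn11 control replicate 2, Lck control replicate 3 or any 1 of the 3 Lck labeled libraries, that of ITGB7 was 0.0502 to 0.163. Construct weights, the replicate block, only the groups compared, voom and leaving out both libraries that stand apart also ended both calls. The adjusted p was then 0.0532 to 0.561 for PTPRA and 0.0761 to 0.677 for ITGB7. Quantile normalization ended the call of ITGB7 (0.134). Of all genes 0.0673% were called with only the groups compared and 0.534% with construct weights, against 2.13% in the main fit. Exons of PTPRA share 12.5% of their bases with VPS16 on the same strand, whose difference with this construct was 0.23. GNRH2, which starts 4546 bases downstream of PTPRA on the same strand, differed by 2.22 with PDGFR and by 1.69 ± 0.29 on average (adjusted p = 0.000621).

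With the CD28 construct 0 of 84 members were called by limma, against 0.476% of all genes (0.175% higher and 0.301% lower). Of the members 7 (8.33%) had an unadjusted p under 0.05, against 13.5% of all genes, and voom on the recovered reads also called 0. ITGB7 measured -0.19, -1.47 and 0.21 log2 FPKM when labeled, from 56, 22 and 75 reads, and -1.80, -2.03 and -1.92 as control, from 17, 13 and 14 reads. Here too every labeled library lay above every control, but replicate 2, a library that stands apart, was close to them. The difference of 1.43 ± 0.51 did not pass (limma, adjusted p = 0.225), and without both libraries that stand apart the adjusted p was 0.049.

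The widest CD28 difference was that of CLDN3, a claudin of epithelial tight junctions, named after its values were seen. It measured -0.65, -4.62 and -1.97 log2 FPKM when labeled, from 11, 0 and 4 reads, and 0.30, 1.36 and -0.21 as control, from 21, 40 and 13 reads. Labeled libraries lay under the controls without overlap, and the difference of -2.90 ± 0.74 did not pass (limma, adjusted p = 0.0824). The value of the library without reads is set by the authors' prior count. Over all constructs CLDN3 was above 0 in 2 labeled and 5 control libraries, so it passed the level rule only with its control values.

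**Figure D2:**
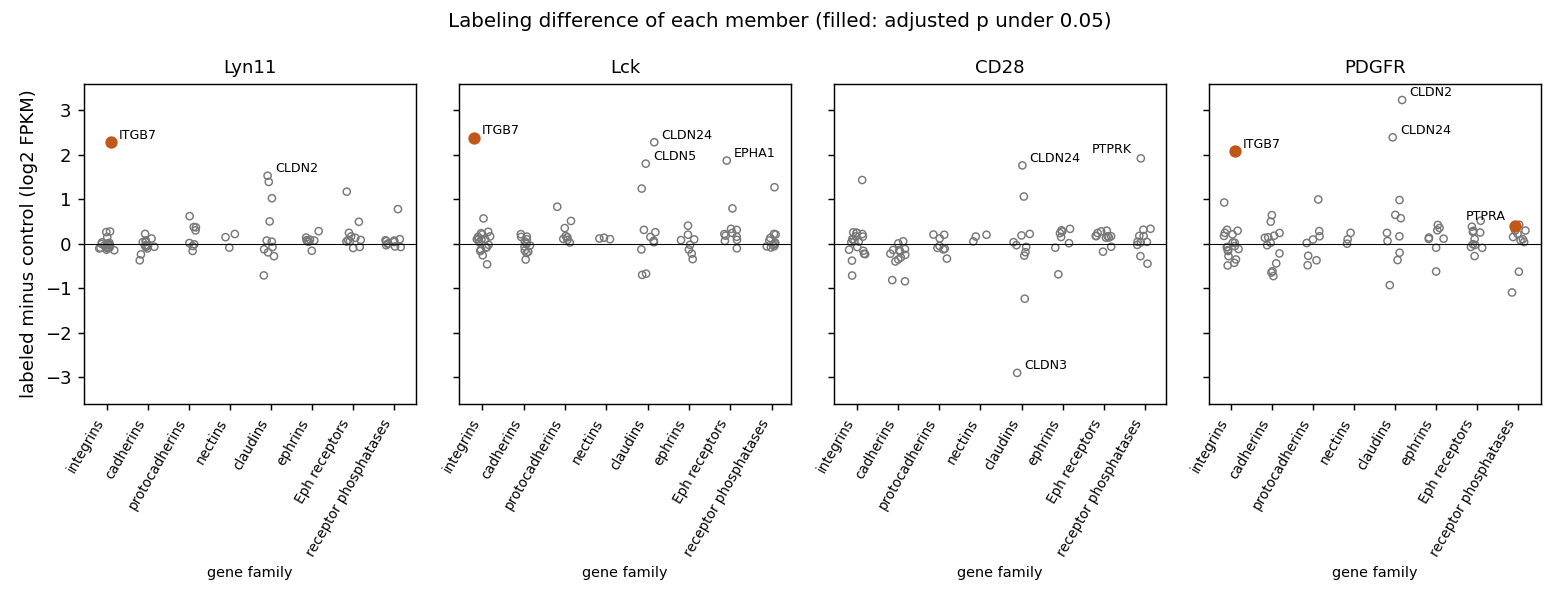
Labeled minus control difference of each of the 84 members in log2 FPKM (vertical axis) by gene family (horizontal axis), 1 panel per construct. Filled points passed limma at an adjusted p under 0.05, which are ITGB7 with Lyn11, Lck and PDGFR and PTPRA with PDGFR, and claudins spread from -2.90 to 3.23.

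Averaged over the 4 constructs, each weighted alike, 6 of 84 members were called higher and 0 lower (7.14%), against 7.37% of all genes, 4.29% higher and 3.08% lower. The members' share thus lies near the background. The 6 were the integrin chain ITGB7, the claudins CLDN5, CLDN2 and CLDN24, the ephrin EFNB2 and the phosphatase PTPRJ. No cadherin, protocadherin, nectin or Eph receptor was called. The median difference was 0.04 against -0.01 over all genes, and 18 members (21.4%) had an unadjusted p under 0.05, against 19.2% of all genes. Of the members 23 were higher in labeled libraries with all 4 constructs and 4 with none of them. These were not counted over all genes, so they describe the members and support no direction.

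ITGB7 showed the highest average difference, at 2.04 ± 0.25 log2 units or 4.12-fold (limma, adjusted p = 1.25e-05). Its 13 labeled libraries ran from -1.47 through a median of 0.52 to 0.80 log2 FPKM, and its 13 controls from -2.99 through -1.87 to -0.75. With each construct its labeled libraries lay above their own controls. Behind these levels stand 1415 reads in all labeled and 319 in all control libraries. The call held in 35 of 35 alternatives that tested the gene, and the stricter level filter left it out. These refits used the same values of a gene that the level rule reached only through labeled libraries, so they are not independent support. The size of the ITGB7 difference depends on the scale. With 1 FPKM added before the log, the average difference was 0.76, and those with Lyn11, Lck and PDGFR were 0.84, 0.95 and 0.76. On that scale the called claudins CLDN5, CLDN2 and CLDN24 differed by 0.71, 0.54 and 0.80 on average.

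The ITGB7 gene (ENSG00000139626) spans chr12:53191318-53207307 on the minus strand of hg38. Of its 4481 exon bases 1886 (42.1%) are also exons of ZNF740 on the opposite strand, 1263 of them in ITGB7 coding sequence and 623 not. ZNF740, a zinc finger gene, stood at 3.34 log2 FPKM, far above ITGB7, and its own average difference was 0.04 ± 0.06 (limma, adjusted p = 0.8). Upstream on the ITGB7 strand, RARG ends 3260 bases away, with a level of 2.50 and an average difference of 0.02 ± 0.09 (adjusted p = 0.951). Neither neighbour was called, and which part of the ITGB7 locus the added reads cover was not tested, since the files hold 1 value per gene.

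CLDN5, the main claudin of blood vessel linings, differed by 1.10 ± 0.23 on average (limma, adjusted p = 0.00451). In the Lck libraries it measured 1.67, 1.72 and 1.48 log2 FPKM when labeled and -0.57, 0.18 and -0.14 as control. In the Lyn11 libraries the values were 0.74, 1.51, 0.56 and 1.67 against 0.46, -0.34, -0.79 and -0.40. Labeled and control libraries of CLDN5 did not overlap with either inside construct. PDGFR values did not overlap either, at 2.28, 1.30 and 1.72 against 0.97, 0.49 and 0.88. CD28 values were 0.76, -1.15 and 1.54 against 0.21, 0.33 and -0.06, and they overlapped through replicate 2, where CLDN5 had 21 reads.

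CLDN2, a claudin that forms pores for cations, differed by 1.77 ± 0.49 on average (limma, adjusted p = 0.0286). PDGFR labeled libraries stood at 0.72, 0.15 and 0.56 log2 FPKM, and the controls at -1.39, -6.04 and -0.82, the lowest of them with 0 reads. Lck labeled libraries stood at 0.18, -0.03 and -0.16 and the controls at -1.83, -1.34 and -0.56. Groups of CLDN2 did not overlap with these constructs. With Lyn11 they overlapped, at -1.44, 0.61, -0.35 and 0.67 against -0.97, -2.48, -1.19 and -1.99, and with CD28 as well, at -0.08, -1.14 and -1.20 against -0.76, -4.0 and -0.84. Without Lck labeled replicate 1, Lck control replicate 1, CD28 labeled replicate 1 or CD28 control replicate 2 the adjusted p was 0.0511 to 0.0568. CLDN2 was another member above 0 in labeled libraries only, and 10.0% of its exon bases are shared with RIPPLY1 on the opposite strand.

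CLDN24, a claudin about which little is established, differed by 1.87 ± 0.44 on average (limma, adjusted p = 0.00963), from few reads. Its Lck labeled libraries held 31, 30 and 33 reads and the controls 4, 11 and 3. The levels were 1.19, 0.99 and 1.11 against -1.45, -0.34 and -1.78 log2 FPKM. With Lck and PDGFR the groups did not overlap. PDGFR labeled libraries held 17, 31 and 15 reads and the controls 7, 11 and 0. With CD28, 23, 12 and 15 reads stood against 10, 0 and 12, and with Lyn11, 10, 25, 22 and 30 against 10, 15, 8 and 8, and the levels of both constructs overlapped. Across all libraries CLDN24 had 294 labeled and 99 control reads.

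EFNB2, the ephrin that marks arteries and activates EPHB4, was the called member with the highest control level, at a mean of 3.73 log2 FPKM. It differed by 0.34 ± 0.07 on average, or 1.26-fold (limma, adjusted p = 0.00274). Its levels were 4.13, 4.49 and 4.28 log2 FPKM in CD28 labeled libraries against 3.96, 3.98 and 4.04, and 3.88, 3.83 and 3.80 in Lck labeled libraries against 3.47, 3.43 and 3.38. PDGFR labeled libraries stood at 4.05, 4.18 and 4.13 against 3.92, 3.65 and 3.70. Groups of EFNB2 overlapped only with Lyn11, at 4.23, 3.86, 4.09 and 3.95 against 4.19, 3.48, 3.73 and 3.59, where control replicate 1 was high. An antisense gene, AL138689.2, shares 26.2% of the EFNB2 exon bases, and reads could not be recovered for EFNB2.

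PTPRJ, a phosphatase that restrains growth factor receptors, differed by 0.16 ± 0.05, or 1.12-fold (limma, adjusted p = 0.044). Lck labeled libraries stood at 3.00, 2.88 and 2.96 log2 FPKM against 2.66, 2.78 and 2.73, and Lyn11 libraries at 2.82, 2.93, 2.91 and 2.84 against 2.96, 2.82, 2.89 and 2.79. The Lck groups did not overlap and the Lyn11 groups did. CD28 labeled libraries stood at 2.65, 2.59 and 2.76 against 2.49, 2.47 and 2.52, and PDGFR labeled libraries at 2.48, 2.63 and 2.50 against 2.44, 2.21 and 2.30. Neither of these constructs showed overlap. The call is marginal: it was lost without any 1 of 20 of the 26 libraries, at an adjusted p of 0.0535 to 0.0867. Adding 1 FPKM, construct weights, the replicate block, voom or leaving out both libraries that stand apart also ended it, at 0.0522 to 0.163.

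**Figure D3:**
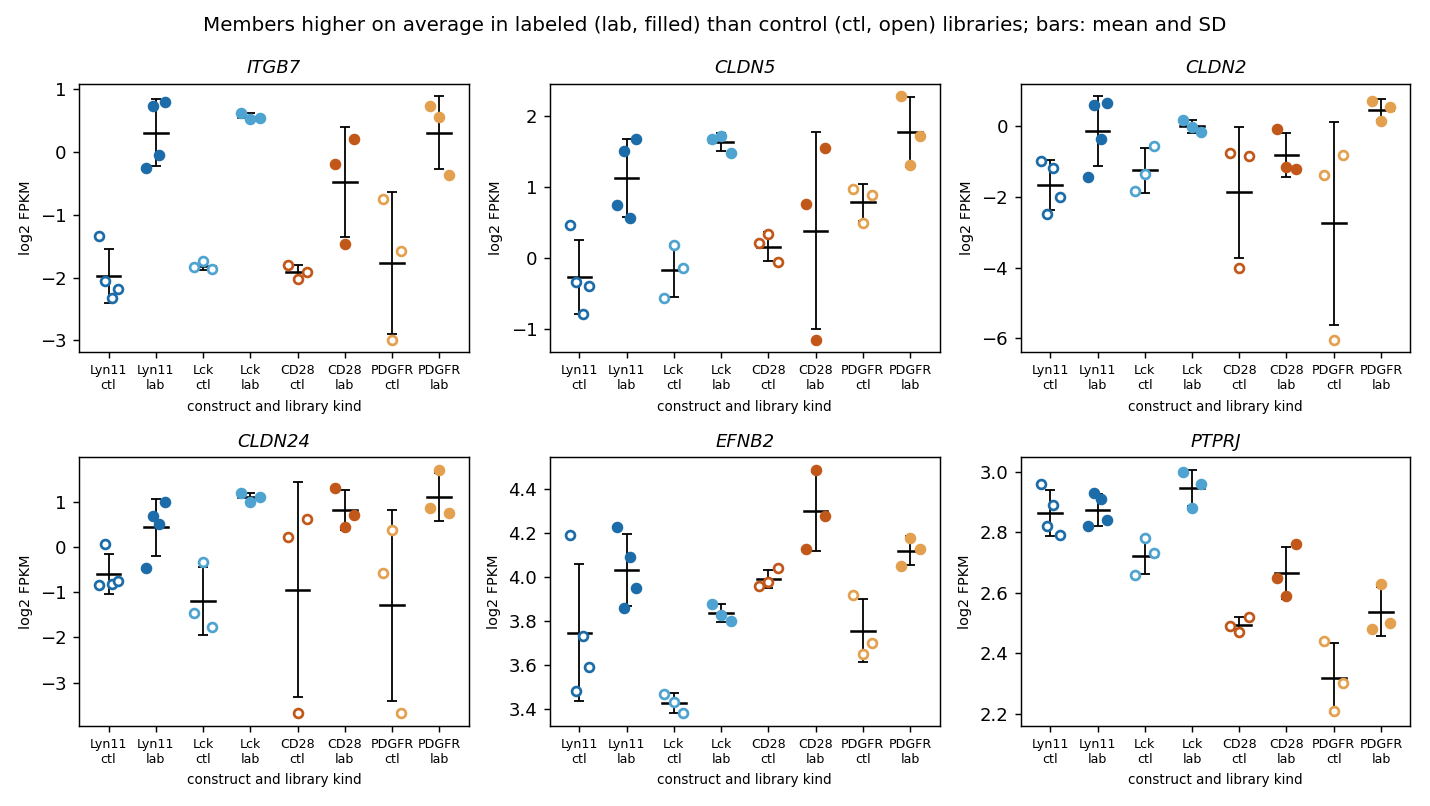
Level of the 6 members called on average, in log2 FPKM (vertical axis), in each library of the 8 groups (horizontal axis). Filled points are labeled and open points control libraries, bars are the mean and SD of a group, and ITGB7 shows no overlap with any construct.

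The called members differ in level. Of the 54 members with a control mean of at least 1, all lay within 0.5 of their controls on average, with a median size of 0.08 and a maximum of 0.42, and 2 were called. Of the 30 under 1, 21 lay within 0.5, the median size was 0.23, and 4 were called. Fitted differences therefore spread more where levels and reads are low. Across the 84 members, which are not independent replicates, the average difference had a Pearson correlation of -0.07 and a Spearman correlation of 0.08 with exon length, and of -0.31 and 0.01 with control level, given as a description. Control values enter both the difference and the control level, and the level rule took some low members through labeled values. The correlation with control level and the split at 1 are therefore not independent of the differences.

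Several members lay near the threshold on average and are named after their values were seen. CLDN3 stood at -1.16 ± 0.36 (limma, adjusted p = 0.0542) and the Eph receptors EPHB3 and EPHA1 at 0.42 ± 0.13 (0.0555) and 0.95 ± 0.31 (0.0629). All 11 Eph receptors had an average difference above 0, from 0.02 to 0.95, and 0 of them were called. Over all genes 48.9% were above 0. Of the 11, 4 (36.4%) had an unadjusted p under 0.05, against 19.2% of all genes, and EPHA1, the highest, passed the level rule through labeled libraries only. Of the 13 cadherins 4 were above 0, with a median of -0.12 and 0 called. CDHR5, a cadherin of microvilli, had the lowest value among them, at -0.51 ± 0.28 (adjusted p = 0.359). Neither CLDN3 nor CDHR5 would have passed the level rule on labeled libraries alone, with 2 above 0 for each.

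Partners of these proteins were read from 4 lists. On average 0 of 14 cadherin and junction partners and 0 of 15 Eph and ephrin signalling partners were called, against 7.37% of all genes. Of 20 integrin adaptors 1 was called higher, VCL, which encodes vinculin, by 0.18 ± 0.05 (limma, adjusted p = 0.0253). Of 19 other surface adhesion receptors 1 was called higher, JAM3, a junctional adhesion molecule, by 0.19 ± 0.04 (adjusted p = 0.00585). These single calls lie near or under the share over all genes. None of the 4 lists held a gene called lower on average, and none held a called gene with a single construct.

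Inside and outside labeling were compared by the difference between their labeling differences. Here limma called 0 of 84 members, against 0.00449% of all genes, which is 1 gene. Of the members 4 (4.76%) had an unadjusted p under 0.05, against 6.52% of all genes, and voom on the recovered reads called 0. The median was 0.03 against -0.04 over all genes, and 78 of 84 values lay within 0.5. For ITGB7 the value was 0.57 ± 0.50 (adjusted p = 0.852), so the sides could not be told apart for it. PTPRA stood at -0.32 ± 0.08 (adjusted p = 0.571), with labeling differences of 0.00 with Lyn11, -0.06 with Lck, 0.18 with CD28 and 0.41 with PDGFR.

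Control libraries themselves differed between the lines. Inside controls were called higher than outside controls for 10 members and lower for 1 (13.1%). Over all genes 11.2% were called, 7.34% higher and 3.84% lower. Phosphatases made up 5 of the 10, namely PTPRA, PTPRD, PTPRM, PTPRJ and PTPRG. The others were CDHR1, CDH2, ITGB1, ITGA6 and EFNB3, and the lower one was PCDH7 (ITGA6, PTPRD and PTPRM complete the count and are named after their values were seen). Side, cell line and read depth cannot be told apart here. Under quantile normalization 13 were higher and 4 lower. Of the 11 called, 7 had no overlap between the 7 inside and the 6 outside controls. This was not counted over all genes, and it describes members already called, so it adds no support to the calls.

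The 7 inside controls of PTPRA ran from 4.53 to 4.79 log2 FPKM and the 6 outside controls from 3.74 to 4.41, a difference of 0.52 ± 0.06 (limma, adjusted p = 3.78e-05). CDH2 ran from 3.86 to 4.24 inside and from 2.92 to 3.71 outside, a difference of 0.57 ± 0.10 (adjusted p = 0.00113). Lyn11 controls of CDH2, at 4.20, 4.09, 4.24 and 4.17, all lay above the Lck controls, at 3.86, 3.88 and 3.91. Between these control groups limma called 0 of 84 members, CDH2 included. PTPRJ differed by 0.39 ± 0.07 (adjusted p = 0.00101), with 2.66 to 2.96 inside and 2.21 to 2.52 outside.

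ITGB1 differed by 0.50 ± 0.15 (limma, adjusted p = 0.0376), with 4.19 to 4.69 inside and 3.47 to 4.10 outside, and CDHR1, a photoreceptor cadherin, by 0.65 ± 0.16 (adjusted p = 0.0118). Outside controls of CDHR1 overlapped the inside ones through PDGFR control replicate 1, at 1.29. EFNB3 differed by 0.37 ± 0.11 (adjusted p = 0.0332) and PTPRG by 0.26 ± 0.08 (adjusted p = 0.0434), both with overlap. PCDH7 went the other way, with a difference of -0.49 ± 0.09 (adjusted p = 0.0013), with CD28 controls at 3.23, 3.14 and 3.06 and Lck controls at 2.26, 2.25 and 2.40. Lyn11 control replicate 1 of PCDH7, at 3.02, lay among the outside controls.

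Leaving out 1 library ended 5 of these calls, and PTPRA, CDH2, PTPRJ, PTPRD, CDHR1 and PCDH7 held without any 1. ITGA6 lost its call without Lck control replicate 1 (adjusted p = 0.0518). ITGB1 lost it without Lyn11 control replicate 3 or 4, any 1 of the Lck controls, CD28 control replicate 1 or PDGFR control replicate 1 or 3, at 0.0543 to 0.106. EFNB3 lost it without Lyn11 control replicate 2 or 3, Lck control replicate 1 or 3, CD28 control replicate 2 or 3 or PDGFR control replicate 2, at 0.056 to 0.0905. PTPRG lost it without any 1 of 16 libraries, at 0.0501 to 0.117, and PTPRM without any 1 of 15, at 0.052 to 0.0917. EFNB3 and PTPRG also lost theirs with only the groups compared, voom or both libraries that stand apart left out, at 0.0833 to 0.0854 and 0.0808 to 0.0849, and PTPRG with construct weights (0.077) and without the trend (0.0547).

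**Figure D4:**
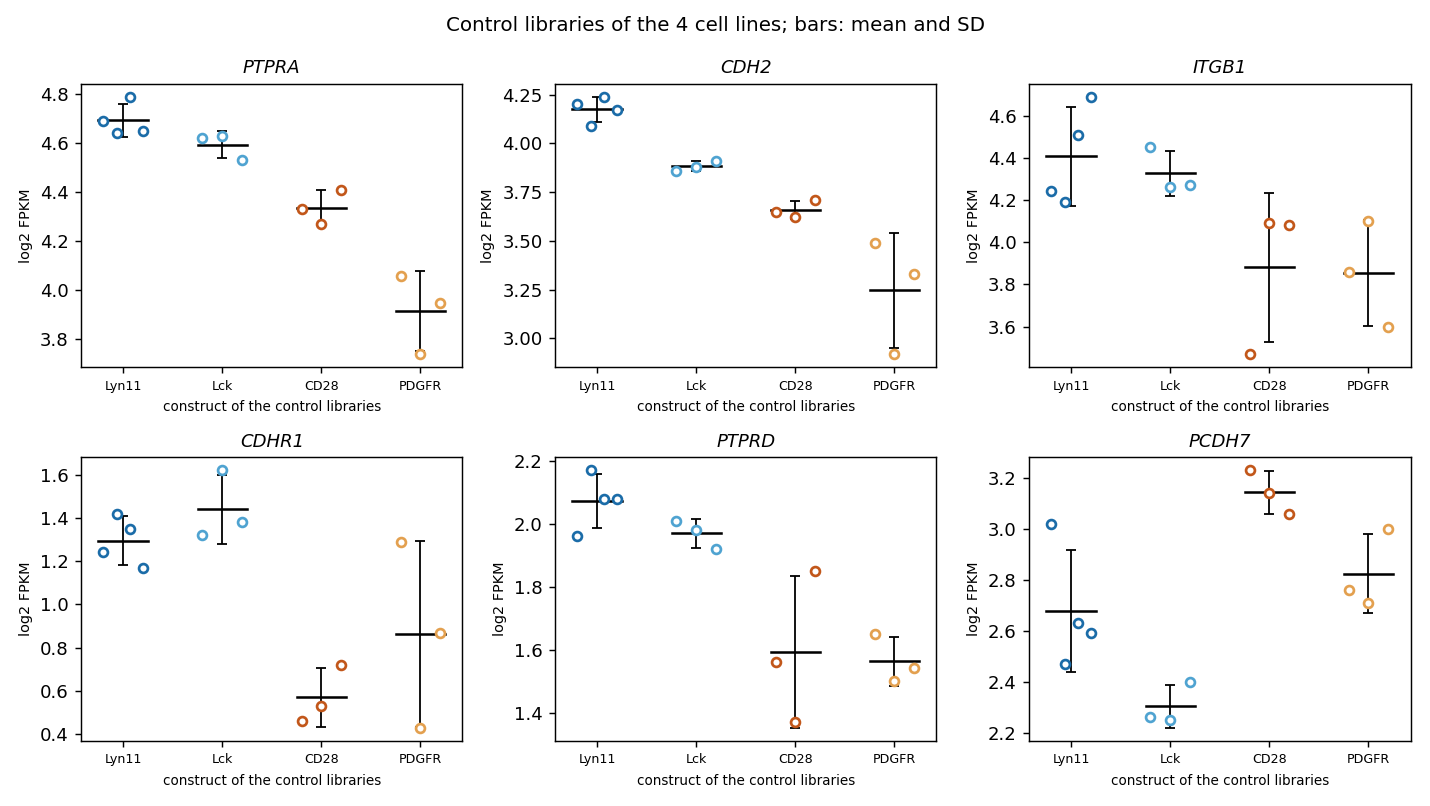
Level of 6 members that differed between inside and outside controls, in log2 FPKM (vertical axes that do not start at 0), in each control library of the 4 constructs (horizontal axis). Bars are the mean and SD of a group, and PTPRA, CDH2, ITGB1 and PTPRD show no overlap between inside and outside controls, while PCDH7 is higher in CD28 controls than in Lck controls.

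Partner genes of adhesion differed between these controls as well. Of cadherin and junction partners 4 of 14 were called higher inside (AFDN, CTNNA1, LIMCH1 and PARD3). Of other surface adhesion receptors 4 of 19 were (CD9, DSG2, L1CAM and NCAM1), and of Eph and ephrin signalling partners 2 of 15 (ABL2 and FYN). Of integrin adaptors 3 of 20 were called higher (CRKL, FERMT2 and VCL) and 1 lower (BCAR1). The background over all genes was 11.2%, with 7.34% called higher and 3.84% lower. Whether the lists differ from it was not tested.

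Lines of the same side were compared as well. Between Lyn11 and Lck controls limma called 0 members and 0% of all genes, 7 members (8.33%) had an unadjusted p under 0.05, against 6.62% of all genes, and voom on the recovered reads called 0. Between CD28 and PDGFR controls 1 member was called higher and 1 lower (2.38%), against 0.269% of all genes (0.202% higher and 0.0673% lower). PTPRA measured 4.33, 4.27 and 4.41 log2 FPKM in CD28 controls and 4.06, 3.74 and 3.95 in PDGFR controls, a difference of 0.42 ± 0.09 (adjusted p = 0.0402). PTPRH, a phosphatase of gut epithelium named after its values were seen, measured -0.08, -0.97 and -0.37 in CD28 controls and 1.24, 1.27 and 0.95 in PDGFR controls, a difference of -1.63 ± 0.29 (adjusted p = 0.0134). Neither pair of groups overlapped.

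PTPRH in PDGFR labeled libraries stood at -0.01, 0.48 and -0.29 log2 FPKM, under all 3 of its PDGFR controls, and the difference of -1.09 ± 0.29 did not pass (limma, adjusted p = 0.0519). In the other 3 constructs its difference was -0.06 with Lyn11, -0.08 with Lck and 0.34 with CD28. Its PDGFR controls were thus the group that stood highest. Single libraries ended both calls between these control groups: PTPRH lost its call without CD28 control replicate 2 (0.0829), and PTPRA without any 1 of 13 libraries (0.0517 to 0.144). Construct weights, only the groups compared and voom ended both, at 0.193 to 0.685 for PTPRH and 0.301 to 0.685 for PTPRA, and PTPRA lost its call under 9 of 10 such settings in all.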

How the data were processed

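The authors deposited log2 FPKM values for 25745 Ensembl genes in 26 libraries. HISAT2 2.1.0, the build hg38 and edgeR, without a version, are named in the submitters' processing notes. Symbols and positions come from GENCODE 29 on hg38. Values that several libraries share as a gene's floor gave the authors' prior count, close to 1.00 read, in 3956 genes. Undoing it gave reads whole to within 0.05 for at least 99.97% of values in those genes and 96.9% to 97.8% of other values under 100 reads. For EFNB2 and CDH23 only 11.5% came out whole, so no reads are given.

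The tests used limma 3.58.1 (R 4.3.3) on the 22284 genes that reached a log2 value above 0 in 3 or more libraries, with a mean for each of the 8 groups, an intensity trend and all 26 libraries. Of 9 comparisons each was two-sided and adjusted by Benjamini-Hochberg over all genes, with calls at an adjusted p under 0.05. The deposited log2 values already hold the authors' prior count of about 1.00 read, which shrinks differences of low genes, and no further pseudocount was added. Read totals limit precision, and where replicates share a culture, p-values measure only the spread between these libraries. Alternatives were other level filters, scalings, weights and pseudocounts, limma's voom on the recovered reads with TMM scaling, a replicate block, and leaving out each library.

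Members named are all those called in labeling comparisons, the 4 largest and 4 smallest called differences between controls at a mean of at least 1, the 2 highest of each family and those at the edge of the level rule. Others are said to be named after their values were seen. The members, lists and tests were chosen with earlier results of these data known.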

Additional observations from a re-analysis of the deposited data

Results flagged for a closer look

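CLDN24 in Lyn11 control replicate 2 stood at 0.07 log2 FPKM, far from the other 3 Lyn11 controls, which lay between -0.84 and -0.76. Its gap was 0.915 of the range of the 4 libraries, above the critical value of Dixon's test. This was 1 of 50 groups of 4 libraries examined over 25 members, and chance marks about 1 in 20. The value rests on 15 reads, against 10, 8 and 8 in the other 3.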

How the results depend on the processing

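Alternatives were run for 31 differences of named members. None of the 31 changed sign, and 931 of their values kept their side of the threshold, 144 lost the call and 35 gained one. Counts of members called moved as follows, with the reported count first. For Lyn11 (1), the stricter level filter and the replicate block gave 0, and quantile normalization and leaving out both libraries that stand apart gave 2. For Lck (1), the stricter filter and the block gave 0, 1 FPKM added, voom and leaving out both libraries 2, quantile normalization 4, only the groups compared 5 (4.42% of all genes called) and construct weights 11 (8.22%). For CD28 (0), leaving out both libraries gave 1. For PDGFR (2), the stricter filter and quantile normalization gave 1, 1 FPKM added 4, and construct weights, the block, only the groups compared, voom and leaving out both libraries 0. For the average (6), the stricter filter gave 2, median centring 11 and quantile normalization 14, where 4.98%, 7.6% and 9.25% of all genes were called. For inside against outside controls (11), quantile normalization gave 17, with 16.1% of all genes called. For CD28 against PDGFR controls (2), the stricter filter, construct weights, only the groups compared and voom gave 0, and 1 FPKM added, median centring, quantile normalization, no trend and leaving out both libraries 1. The stricter filter tests fewer genes and leaves ITGB7 out, and otherwise the cause was not tested. Leaving out 1 library gave 0 to 2 for Lyn11, 0 to 2 for Lck, 0 to 1 for CD28, 0 to 3 for PDGFR, 4 to 9 for the average, 0 for inside minus outside, 6 to 14 for inside against outside controls, 0 for Lyn11 against Lck controls and 0 to 3 for CD28 against PDGFR controls. Median centring moved the median of all genes with CD28 from 0.03 to 0.15.

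Libraries of the same replicate number deviated together at correlations of -0.288 to 0.166. Such low values cannot show whether same-numbered libraries were prepared together, so the replicate block was kept as an alternative. The replicate block gave 0, 0, 0 and 0 calls for Lyn11, Lck, CD28 and PDGFR, 5 for the average and 0 for inside minus outside. Where only a few reads stand behind a member, as for CLDN24, CLDN2 and CLDN3, depth limits what could be detected.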
